A study of Mus musculus with 5 samples.

Results

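The genes described encode the constitutive proteasome, and are all those listed whose symbol begins with Psma, Psmb, Psmc, Psmd or Psme and a digit, without Psmb8, Psmb9 and Psmb10. They number 42 of 19726 listed genes: 16 core genes, 20 cap genes, 5 activator genes, and Psmc3ip. Psmc3ip meets the rule by its spelling alone, since it encodes a meiotic recombination factor and not a subunit. The core set includes Psma8, known as the alpha subunit of the testis, and Psmb11, the cutting subunit of thymic cortical epithelium. The cap set includes Psmd5, Psmd9 and Psmd10, which encode chaperones of cap assembly.

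The proteasome is the barrel-shaped protease that degrades proteins tagged with ubiquitin. Its core consists of stacked rings of alpha subunits, which gate the entrance, and beta subunits, of which those encoded by Psmb5, Psmb6 and Psmb7 cut the substrate. A cap of ATPases and other subunits binds, unfolds and feeds in ubiquitinated proteins, and alternative activators encoded by the Psme genes open the core without a cap. The 3 cutting subunits can be replaced by forms that interferon is able to induce, encoded by Psmb8, Psmb9 and Psmb10, which are not counted here.

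RNA came from cells labelled as CD4+ T cells, 2 libraries from MC38 tumors (replicates 2 and 3) and 3 from spleens (replicates 1, 2 and 3), all of wild-type C57/Bl6j mice at 7 weeks of age. CD4+ T cells are helper and regulatory lymphocytes, and MC38 tumors grow from a mouse colon carcinoma line. Values are TPM, a transcript abundance corrected for transcript length, so levels can be compared between genes. The sources used here do not give how the cells were isolated, whether animals were pooled or whether replicates came from separate mice, and the p-values cover only the spread of these libraries, which may be technical.

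Listed values added up to 596116 and 569309 TPM in the tumor libraries and to 268987 to 359532 TPM in the spleen libraries, so the scaling of a library bears on every change below. Read depth is unknown and no counting interval is given. All 12 markers of T cell identity were lower in the tumor libraries, with sums of 306 and 242 TPM against 971 to 1284 TPM in spleen. Cd4 averaged 27.0 ± 0.22 TPM in tumor and 115 ± 16.5 TPM in spleen (SD, n = 2 and 3). All 16 markers of macrophages and monocytes were higher, with sums of 6085 and 6693 TPM in tumor against 20.8 to 23.8 TPM in spleen. No marker on either list was at 0 in any library. Markers of neutrophils summed to 68.0 and 74.7 TPM in tumor and 17.6 to 23.1 TPM in spleen. Csf3r alone made up 53.1 and 57.8 TPM of the tumor sums. Of the 8 neutrophil markers, 2 were higher in both tumor libraries than in every spleen library and 3 were lower. Those of fibroblasts and endothelium summed to 101 and 112 TPM in tumor and 76.0 to 79.7 TPM in spleen. Of these sums Kdr made up 32.7 and 33.1 TPM in tumor and 0.45 to 0.84 TPM in spleen. In this list of 8, 4 markers were higher in both tumor libraries and 0 were lower. Lists of dendritic cells, B cells, CD8 T and NK cells, and tumor epithelium summed to 1.87 to 15.2 TPM in tumor and 2.37 to 21.9 TPM in spleen libraries. The part of this difference in cell markers in the changes below was not tested, and in bulk samples fewer cells of a type and less RNA per cell cannot be told apart. Olfactory receptor genes, 1134 in number, which T cells are not known to use, served as background, with a 95th percentile of 7.59 and 10.7 TPM in tumor and 10.6 to 16.2 TPM in spleen libraries.

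Transcripts of nearly all proteasome subunits were more abundant in the tumor libraries. In limma's test on log2(TPM + 1), with calls at an adjusted p below 0.05 over 12979 genes, 37 of the 41 proteasome genes tested rose and none fell (40.9% of all genes tested rose and 18.1% fell). None fell at an unadjusted p below 0.05 either. Their median log2 change was 1.44, against 0.23 over all genes tested. Psma8, at 0.85 and 0.97 TPM in tumor and 0.15 to 0.50 TPM in spleen, did not reach the mean of 1 TPM required for the test and lay below the background level in all 5 libraries. The 4 genes tested and not called were Psmb11, Psmd5, Psmd9 and Psmc3ip: the thymic subunit, a pair of assembly chaperones and the gene that is not a subunit. All 36 tested genes of constitutive core subunits, cap subunits and activators rose, and 1 chaperone gene. Taken as one sum, the 42 genes made up 0.517% and 0.607% of the listed TPM in the tumor libraries, against 0.363% to 0.391% in the spleen libraries.

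**Figure D1:**
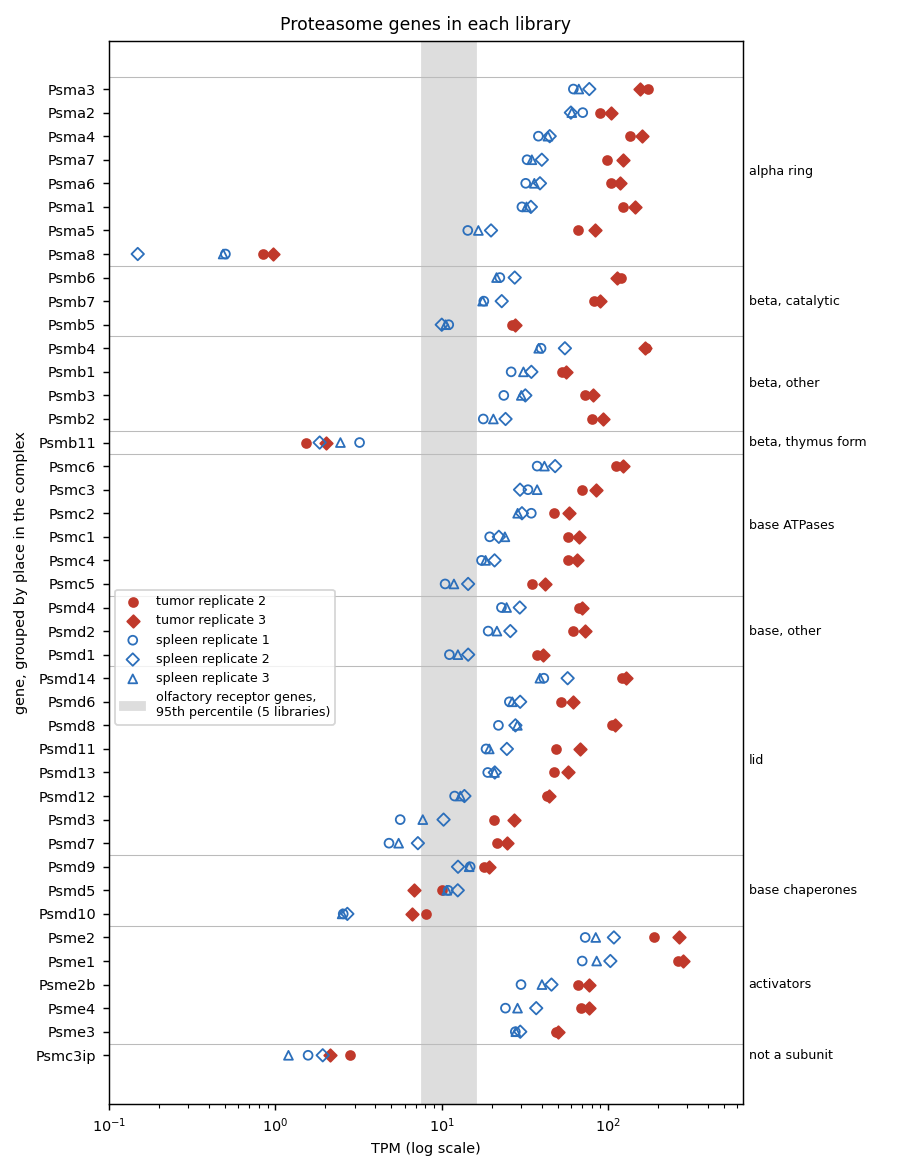
TPM of each of the 42 genes (rows, grouped by place in the complex; log axis) in the 2 tumor libraries (filled red) and 3 spleen libraries (open blue), with the range of the olfactory receptor 95th percentile shaded. Tumor libraries lay above all spleen libraries for 39 of the 41 tested genes (46.6% of all genes tested). Psmd5 lay below (23.8% of all genes tested) and Psmb11 overlapped.

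The tumor libraries lay above every spleen library for 39 of the 41 genes (46.6% of all genes tested), among them Psmd9 and Psmc3ip. Above the background level were 39 and 37 of the 42 genes in the tumor libraries, and 29 to 35 in the spleen libraries. Psmd3 and Psmd7 of the lid and Psmb5 of the core lay above it in both tumor libraries and below it in all 3 spleen libraries, so the size of their change is uncertain.

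How far the changes hold depended on scaling, and most did. After scaling to equal totals, the setting least favourable to a rise, 28 of the 41 genes still rose and 2 fell (20.9% and 51.6% of all genes tested). On the upper quartile 30 rose and 2 fell (23.7% and 49.0%), and by median ratios 36 rose and none fell (37.3% and 21.0%). Scaled on the T cell identity markers all 41 rose, but so did 94.6% of all genes tested, while 0.940% fell. The median of all genes was 0.23 as deposited, 0.16 by median ratios, -0.45 on the upper quartile, -0.61 with equal totals and 2.07 on the T cell identity markers. Relative to it the median proteasome gene lay 1.21, 1.20, 1.09, 1.14 and 1.43 higher on the log2 scale. The 28 genes that rose with equal totals rose under all 5 scalings, 11 of the core, 14 of the cap and 3 activators (20.9% of all genes tested). A scaling shifts all genes of a library nearly alike, so the scalings are not separate evidence.

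**Figure D2:**
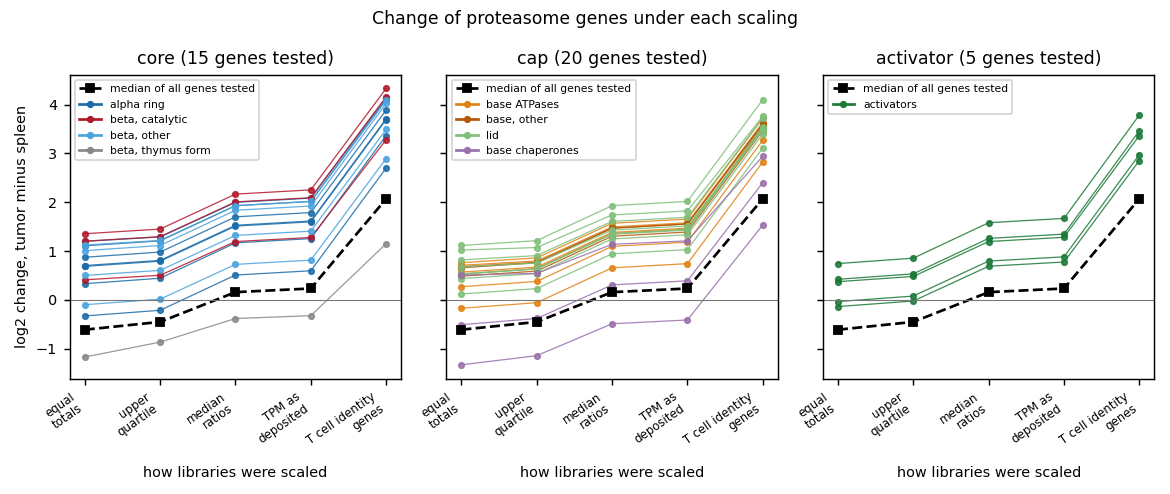
Log2 change, tumor minus spleen, of each tested core, cap and activator gene (one line a gene, coloured by place in the complex) under 5 ways of scaling the libraries, with the median of all genes tested as a dashed black line. Most lines lie above the dashed line under each scaling, while the whole set moves up and down with it.

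Because no scaling of a library alters the order of its genes, each gene's percentile among the 19726 listed genes was also read. In 27 of the 42 genes it was higher in both tumor libraries than in any spleen library (30.7% of all genes tested), in 8 lower (47.9% of all genes tested), and in 7 the tissues overlapped. Psmd7, a lid subunit, stood at percentile 80.7 and 81.3 in tumor and 61.5 to 66.7 in spleen. Psma5 of the alpha ring stood at 93.1 and 94.0 in tumor and 83.7 to 85.4 in spleen. The 8 with lower percentiles were Psma2, Psma3, Psmb1, Psmb11, Psmc2, Psmd5, Psme2b and Psme3. Of these, Psma2, Psma3, Psmb1, Psmc2, Psme2b and Psme3 had all risen in TPM as deposited.

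The letters of the promoters were read for 3 motifs, on both strands, in windows of 250 bases before to 50 after the start of transcription (RefSeq, GRCm38.p6). There were 38 windows for 35 of the 42 genes, some genes having more than 1 start. The core of the antioxidant response element, TGACNNNGC, which NRF1 and NRF2 read, was in 15.8% of the windows of proteasome genes and in 12.4% of all 32851 windows. Windows of Psmb5, Psmb6, Psmc6, Psmd9, Psmd12 and Psme4 held it. The NF-Y box CCAAT was in 36.8% and 37.4%. The core of the interferon-stimulated response element, GAAA-NN-GAAA, was in 10.5% and 3.44%, in the windows of Psmb3, Psmd4, Psmd9 and Psme1. A match describes letters and is not shown to be a site.

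The windows of 3 genes follow with the matched letters in capitals. They are examples that hold a match and do not stand for the other genes. Those of Psmb6 and Psmb5 belong to the cutting subunits with the largest and the smallest change and both hold the antioxidant response element core. Psmb7, the remaining cutting subunit gene, is not among the genes with that core. That of Psme1 belongs to the activator gene that rose most and holds the interferon-stimulated core, which was found for no other activator gene. Psmd9, for which both cores were found, was not called as changed. The window of Psmb6 is chr11:70525107-70525406 on the plus strand and its match begins 9 bases before the start.
Psmb6: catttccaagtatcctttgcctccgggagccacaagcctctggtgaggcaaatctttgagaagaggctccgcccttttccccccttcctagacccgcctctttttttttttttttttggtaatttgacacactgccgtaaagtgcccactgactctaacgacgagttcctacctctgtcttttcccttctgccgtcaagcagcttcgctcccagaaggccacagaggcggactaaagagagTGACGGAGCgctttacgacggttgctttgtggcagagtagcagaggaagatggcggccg
The window of Psmb5 is chr14:54617946-54618245 on the minus strand and its match begins 47 bases before the start.
Psmb5: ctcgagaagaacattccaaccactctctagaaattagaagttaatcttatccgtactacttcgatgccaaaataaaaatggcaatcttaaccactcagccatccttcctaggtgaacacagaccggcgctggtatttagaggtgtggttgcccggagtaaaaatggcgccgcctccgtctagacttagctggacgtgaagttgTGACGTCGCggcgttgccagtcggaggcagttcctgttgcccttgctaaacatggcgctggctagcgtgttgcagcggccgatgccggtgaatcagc
The window of Psme1 is chr14:55578244-55578543 on the plus strand and its match, on the opposite strand, begins 9 bases after the start. The whole window lies within the gene as GENCODE M21 places it, from 55578123, so its start is not the first one annotated there.
Psme1: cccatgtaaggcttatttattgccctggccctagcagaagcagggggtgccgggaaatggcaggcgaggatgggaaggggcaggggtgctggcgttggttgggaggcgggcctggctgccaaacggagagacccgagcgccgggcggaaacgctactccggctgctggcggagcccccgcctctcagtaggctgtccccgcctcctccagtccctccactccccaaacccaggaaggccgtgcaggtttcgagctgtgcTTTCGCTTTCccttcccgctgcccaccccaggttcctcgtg

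The median log2 change was 1.62 over the 15 core genes tested, 1.45 over the 20 cap genes and 1.28 over the 5 activator genes. All 14 constitutive core genes rose, with log2 changes of 0.60 to 2.25. Psmb6, whose window is shown above and whose subunit cuts after acidic residues, had 120 and 113 TPM in tumor, against 22.4, 27.5 and 21.4 TPM in spleen. Its log2 change of 2.25 ± 0.21 (SE; limma adjusted p = 2.2e-13) was the largest of all the proteasome genes, and it remained 1.36 with equal totals. Psmb7, whose subunit cuts after basic residues, had 82.2 and 90.2 TPM in tumor, against 18.0, 23.0 and 17.7 TPM in spleen (log2 change 2.09 ± 0.21, limma adjusted p = 2.5e-12). The folds of the means were 4.90 and 4.41, with no overlap between tissues.

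Psmb5, whose subunit cuts after hydrophobic residues and is the main target of proteasome inhibitor drugs, was lower and moved less. It had 26.6 and 27.5 TPM in tumor, against 11.0, 10.03 and 10.6 TPM in spleen (log2 change 1.28 ± 0.21, limma adjusted p = 5.2e-07). Both tumor libraries lay at more than 2 times every spleen library, but the call was lost with equal totals (log2 change 0.41, limma adjusted p = 0.071). Psmb5 had the lowest TPM of the 14 constitutive core genes in every library. The 14 spanned a 6.55- and 6.09-fold range in the tumor libraries, and a 6.31- to 7.70-fold range in the spleen libraries.

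In the alpha ring 7 of 7 tested genes rose. Psma5 had 66.4 and 83.7 TPM in tumor, against 14.4, 19.8 and 16.7 TPM in spleen, the largest change of the ring (log2 change 2.08 ± 0.21, limma adjusted p = 4.2e-12). Psma2 changed least, with 89.8 and 104 TPM in tumor, against 70.6, 59.9 and 60.7 TPM in spleen (log2 change 0.60 ± 0.21, limma adjusted p = 0.012). The tissues did not overlap for either gene, yet the call of Psma2 was lost by median ratios (adjusted p = 0.086). The call was also lost without tumor replicate 2 (adjusted p = 0.063), tumor replicate 3 (0.20) or spleen replicate 3 (0.098). With equal totals its change was -0.33 and on the upper quartile -0.21, neither called. Psma1, Psma3, Psma4, Psma6 and Psma7 lay between, with log2 changes of 1.26 to 2.02.

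Among the beta subunits that do not cut, Psmb2 had 80.3 and 93.9 TPM in tumor, against 17.8, 24.3 and 20.5 TPM in spleen (log2 change 2.02 ± 0.21, limma adjusted p = 9e-12). Psmb1 had 52.7 and 55.9 TPM in tumor, against 26.2, 34.7 and 31.1 TPM in spleen, a smaller rise (log2 change 0.81 ± 0.21, limma adjusted p = 0.0008). The tissues did not overlap for either gene, but Psmb1 was not called on the upper quartile (0.01) or with equal totals, where its sign turned (-0.10). Psmb4, with the highest tumor mean of the core at 169 ± 2.15 TPM against 44.4 ± 9.33 TPM in spleen (SD, n = 2 and 3), rose by 1.92 on the log2 scale, and Psmb3 by 1.41. Psmb11 was at 1.54 and 2.02 TPM in tumor and 3.22, 1.85 and 2.47 TPM in spleen, below the background level throughout.

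**Figure D3:**
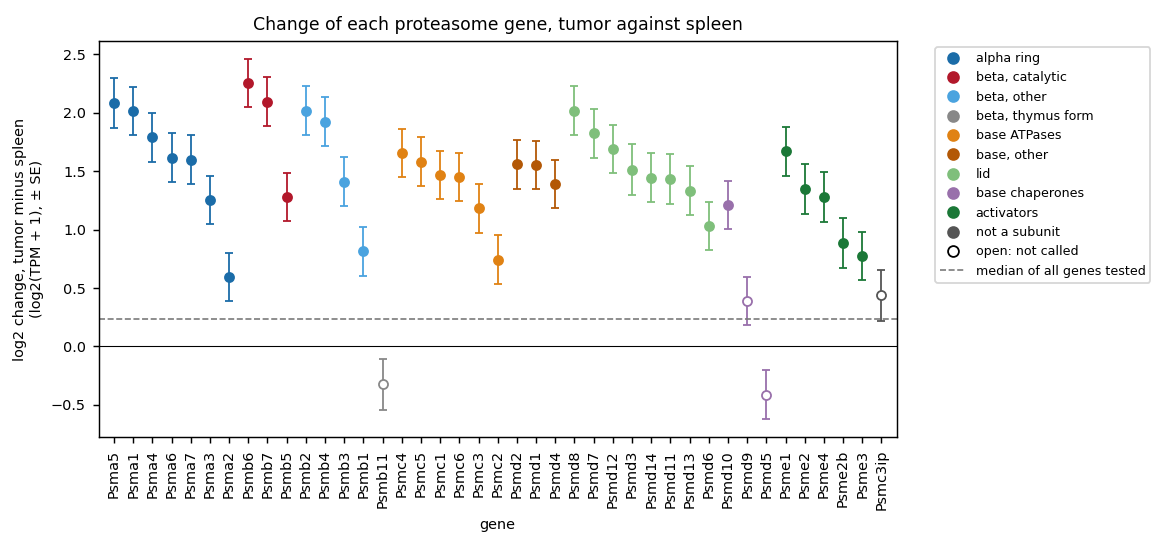
Log2 change, tumor minus spleen, on the log2(TPM + 1) scale with its standard error, for the 41 genes tested, ordered within each place in the complex; open symbols were not called and the dashed line is the median of all genes tested (0.23). Psmb6 stands highest at 2.25 and the chaperone gene Psmd5 lowest at -0.41.

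Within a library, subunits can be set against each other with no regard to scaling. Each TPM was divided by the median of the 12 core genes that lay above the background level in every library. That median was 102 and 116 TPM in tumor and 31.2 to 36.9 TPM in spleen. Psmb6 stood at 1.17 and 0.98 times the median in tumor and at 0.64 to 0.75 times in spleen. Psma2 stood at 0.88 and 0.90 times in tumor and at 1.63 to 2.26 times in spleen, the highest core gene of spleen replicate 1. Relative to the core median, Psma1, Psma4, Psma5, Psmb2, Psmb6 and Psmb7 were higher in both tumor libraries than in any spleen library (14.3% of all genes tested). Psma2, Psma3, Psmb1, Psmb3, Psmb5 and Psmb11 were lower (77.2% of all genes tested), and 4 core genes overlapped. The core genes lie around this median by construction. No test goes with these ratios, since the smallest two-sided p that an exact rank-sum test of 2 against 3 libraries allows is 0.2.

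**Figure D4:**
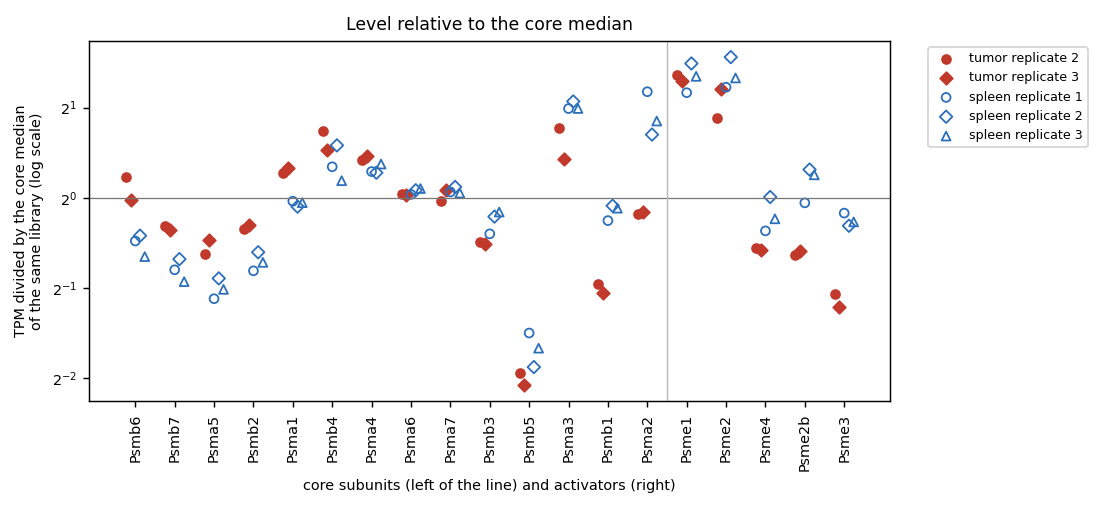
TPM of each constitutive core gene (left of the line) and activator gene (right) divided by the core median of the same library (log axis), for the 2 tumor (filled red) and 3 spleen (open blue) libraries. Psmb6, Psmb7, Psma5, Psmb2 and Psma1 lie higher in tumor, and Psma2, Psmb1 and Psma3 lower.

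The inducible forms were set beside the constitutive subunits they replace. Psmb8, Psmb9 and Psmb10 also rose, by 1.45, 1.75 and 2.03 on the log2 scale, to means of 167, 92.2 and 128 TPM in tumor against 61.0, 27.4 and 30.8 TPM in spleen. The ratio of Psmb9 to its constitutive partner Psmb6 was 0.75 and 0.84 in tumor and 0.90, 1.29 and 1.23 in spleen, lower in both tumor libraries. That of Psmb10 to Psmb7 was 1.47 and 1.51 in tumor and 1.53, 1.54 and 1.67 in spleen, a small difference without overlap. That of Psmb8 to Psmb5 overlapped, at 5.89 and 6.46 in tumor and 4.33, 7.22 and 5.92 in spleen. None of the 3 ratios was higher in both tumor libraries than in every spleen library.

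All 17 cap subunit genes rose, with log2 changes of 0.74 to 2.02. The 6 ATPases, which unfold the substrate, had a median change of 1.46. Psmc4 had 57.7 and 65.4 TPM in tumor, against 17.4, 20.8 and 18.4 TPM in spleen (log2 change 1.66 ± 0.21, limma adjusted p = 1.6e-09). Psmc2 had 47.7 and 58.5 TPM in tumor, against 34.6, 30.4 and 28.7 TPM in spleen, the smallest change of the cap subunits (0.74 ± 0.21, limma adjusted p = 0.0021). Without tumor replicate 3 it was not called (adjusted p = 0.10), and its sign turned under equal totals (-0.17) and under the upper quartile (-0.06). The lowest tumor library of Psmc2 was still above the highest spleen library. Psmc3 rose by 1.18 on the log2 scale but was not called with equal totals or on the upper quartile.

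The scaffold and ubiquitin receptor genes of the base moved closely together, at 1.39 to 1.56. Psmd2, the scaffold on which shuttle receptors dock, had 61.4 and 72.4 TPM in tumor, against 19.1, 25.9 and 21.5 TPM in spleen (log2 change 1.56 ± 0.21, limma adjusted p = 1.1e-08). Psmd4, a ubiquitin receptor, had 67.1 and 70.1 TPM in tumor, against 22.9, 29.5 and 24.6 TPM in spleen (1.39 ± 0.21, limma adjusted p = 1.2e-07). The folds of the means were 3.02 and 2.67, with no overlap between tissues.

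The lid, which takes ubiquitin off the substrate, had 8 of 8 genes up with a median of 1.48. Psmd8 had 106 and 110 TPM in tumor, against 22.0, 27.8 and 28.5 TPM in spleen, the largest change of the cap (log2 change 2.02 ± 0.21, limma adjusted p = 7.2e-12). Psmd6 had 52.0 and 61.8 TPM in tumor, against 25.6, 29.7 and 26.6 TPM in spleen, the smallest of the lid (1.03 ± 0.21, limma adjusted p = 3.1e-05). Neither gene overlapped between the tissues, but Psmd6 was not called with equal totals (0.12) or on the upper quartile (0.23). Psmd14, the deubiquitinase of the lid, rose by 1.44 on the log2 scale, to 125 ± 4.44 TPM in tumor against 45.8 ± 9.97 TPM in spleen (SD, n = 2 and 3). Relative to the core median, only Psmd7 and Psmd8 of the 20 cap genes were higher in both tumor libraries (14.3% of all genes tested), 9 were lower (77.2%) and 9 overlapped.

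The chaperones of base assembly did not move as one. Psmd10, also known as gankyrin, had 8.11 and 6.62 TPM in tumor, against 2.57, 2.72 and 2.53 TPM in spleen (log2 change 1.21 ± 0.21, limma adjusted p = 2e-06). Only tumor replicate 2 lay above the background level, and the call of Psmd10 was lost with equal totals (limma adjusted p = 0.053). Psmd5 had 10.03 and 6.85 TPM in tumor, against 11.0, 12.5 and 10.8 TPM in spleen (-0.41 ± 0.21, limma adjusted p = 0.087). Of the tested proteasome genes only Psmd5 had tumor values below all spleen values, as did 23.8% of all genes tested. Psmd5 was called as a fall under equal totals (-1.33) and under the upper quartile (-1.15), and as a rise when scaled on the T cell identity markers (1.53). Psmd9 averaged 18.6 ± 0.78 TPM in tumor and 14.0 ± 1.27 TPM in spleen (SD, n = 2 and 3) and was not called.

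All 5 activator genes rose, Psme1 most. Psme1 and Psme2 encode the chains of the activator ring that interferon induces and that favours the making of peptides for MHC class I. They lie near each other on chromosome 14 (Psme1 from 55578123 to 55581529 and Psme2 from 55587441 to 55591113, GRCm38). Psme1, whose window is shown above, had 263 and 284 TPM in tumor, against 70.1, 103 and 85.6 TPM in spleen (log2 change 1.67 ± 0.21, limma adjusted p = 1.7e-09). Psme2 had 188 and 267 TPM in tumor, against 73.0, 109 and 84.5 TPM in spleen (1.35 ± 0.21, limma adjusted p = 4.6e-07). They were the most abundant of the 42 genes in each library but spleen replicate 1, where Psma2 lay between them. The ratio of Psme1 to Psme2 was 1.40 and 1.07 in tumor and 0.95 to 1.01 in spleen, higher in both tumor libraries. It rests on the value of Psme2, which may share reads with the nearly identical Psme2b.

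Psme4, which encodes a large nuclear activator linked to the degradation of acetylated histones, had 69.3 and 77.4 TPM in tumor, against 24.2, 37.1 and 28.6 TPM in spleen (log2 change 1.28 ± 0.21, limma adjusted p = 1.1e-06). Psme3, whose product forms a nuclear activator ring, had 48.8 and 50.1 TPM in tumor, against 27.8, 29.7 and 28.0 TPM in spleen (0.78 ± 0.21, limma adjusted p = 0.0012). Psme2b had 65.8 and 76.7 TPM in tumor, against 30.0, 45.8 and 40.1 TPM in spleen (0.88 ± 0.21, limma adjusted p = 0.00041). The tissues did not overlap for any of the 5 activator genes. The values of Psme2b and Psme2 are uncertain, since their transcripts are 99.4% identical over 794 aligned bases and reads may be split between them. Psme3 and Psme2b were not called with equal totals (-0.14 and -0.036) or on the upper quartile (-0.024 and 0.077). Relative to the core median, 4 of the 5 activator genes were lower in both tumor libraries and none was higher (77.2% and 14.3% of all genes tested).

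Genes around the proteasome moved in both directions. Of 31 listed genes of assembly, transcription, ubiquitin supply and delivery, 20 rose, 3 fell and 8 were not called (40.9% and 18.1% of all genes tested rose and fell). The counts moved with the scaling, as did those of all genes tested. Equal totals gave 10 rises and 11 falls among the 31, beside shares of 20.9% and 51.6% over all genes tested. The upper quartile gave 12 rises and 10 falls (23.7% and 49.0%), and median ratios 17 and 2 (37.3% and 21.0%). Scaled on the T cell identity markers all 31 rose, as did 94.6% of all genes tested.

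Of the core assembly genes 3 rose, 1 fell and 1 was not called. Pomp, which encodes the factor that completes the core, had 107 and 129 TPM in tumor, against 22.3, 22.4 and 24.4 TPM in spleen (log2 change 2.30 ± 0.21, limma adjusted p = 9.3e-14). The assembly chaperone gene Psmg2 had 5.37 and 5.03 TPM in tumor, against 6.89, 9.42 and 8.15 TPM in spleen (-0.55 ± 0.21, limma adjusted p = 0.02). Its values lay below the background level in every library, and its call was lost with no filter and without tumor replicate 2, tumor replicate 3 or spleen replicate 3. Scaled on the T cell identity markers it was called as a rise (1.32). Sem1 and Adrm1, cap subunits without a Psm symbol, rose by 2.22 and 1.69 on the log2 scale (named after their values were seen). Psmf1, which encodes a proteasome inhibitor, averaged 8.39 ± 1.75 TPM in tumor and 7.81 ± 0.91 TPM in spleen (SD, n = 2 and 3), below the background level in every library, and was not called.

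Of 6 genes for the transcription of proteasome genes and its control, 5 rose and 1 fell (40.9% and 18.1% of all genes tested). With equal totals 3 rose and 1 fell (20.9% and 51.6%). Nfe2l1 encodes NRF1, the transcription factor that raises proteasome gene expression when the proteasome is impaired. It had 28.3 and 29.7 TPM in tumor, against 10.1, 9.20 and 9.93 TPM in spleen, and its spleen values lay below the background level (log2 change 1.48 ± 0.21, limma adjusted p = 1.9e-08). Nfe2l2, which encodes the related NRF2 of the oxidative stress response, had 194 and 234 TPM in tumor, against 13.5, 19.0 and 15.0 TPM in spleen (3.68 ± 0.21, limma adjusted p = 8.9e-21). Ngly1, the gene of a deglycosylating enzyme that NRF1 needs, had 17.7 and 17.8 TPM in tumor, against 22.9, 36.6 and 25.4 TPM in spleen (-0.62 ± 0.21, limma adjusted p = 0.013). Its call was lost without either tumor library (adjusted p = 0.098 and 0.085), and its sign turned when scaled on the T cell identity markers (1.43).

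Among 4 ubiquitin and E1 enzyme genes, the polyubiquitin gene Ubb and the E1 genes Uba1 and Uba6 rose and Rps27a fell. Over all genes tested 40.9% rose and 18.1% fell. With equal totals Uba1 (-0.038) and Uba6 (0.33) were not called, and on the upper quartile Uba1 was not (0.07). Ubb had 539 and 575 TPM in tumor, against 87.0, 134 and 101 TPM in spleen (log2 change 2.39 ± 0.21, limma adjusted p = 4.2e-14). Rps27a, which makes ubiquitin fused to a ribosomal protein, had 341 and 335 TPM in tumor, against 423, 536 and 465 TPM in spleen (-0.48 ± 0.20, limma adjusted p = 0.036). The call of Rps27a was lost by median ratios, with no filter and without tumor replicate 2, tumor replicate 3 or spleen replicate 3, and it was called as a rise when scaled on the T cell identity markers (1.65).

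Of 6 genes of shuttle receptors, which carry ubiquitinated proteins to the cap, 4 rose and none fell (40.9% and 18.1% of all genes tested). With equal totals 1 rose and 1 fell (20.9% and 51.6%). Ddi2, whose product also cleaves NRF1 into its active form, averaged 17.7 ± 1.18 TPM in tumor and 6.86 ± 0.68 TPM in spleen (SD, n = 2 and 3; log2 change 1.25 ± 0.21, limma adjusted p = 8.3e-07). Its spleen values lay below the background level. Ubqln4 averaged 5.55 ± 0.01 TPM in tumor and 6.56 ± 1.34 TPM in spleen and was not called. Of 5 genes of deubiquitinases, ligases and an adaptor that bind the proteasome, all 5 fell with equal totals (51.6% of all genes tested). As deposited 1 rose and none fell (40.9% and 18.1% of all genes tested). That was Uchl5, a deubiquitinase gene, at 39.6 ± 4.48 TPM in tumor and 27.2 ± 2.75 TPM in spleen (0.53 ± 0.21, limma adjusted p = 0.027). Its call was lost by median ratios (0.44), on the upper quartile, where its sign turned (-0.27), and at a threshold of 0.01. The call was also lost under the replicate block and without tumor replicate 2, tumor replicate 3, spleen replicate 1 or spleen replicate 3. With equal totals Uchl5 was called as a fall (-0.39). Ube3a, a ubiquitin ligase gene, averaged 41.6 ± 0.17 TPM in tumor and 54.5 ± 12.2 TPM in spleen and was not called. Psmf1, Ubqln4 and Ube3a, not called as deposited, were called as falls with equal totals (-0.80, -1.08 and -1.29) and on the upper quartile (-0.64, -0.88 and -1.16), and as rises when scaled on the T cell identity markers. Both genes of proteins that bind the proteasome under stress rose, Zfand2a by 4.67 and Zfand5 by 3.61 on the log2 scale (named after their values were seen). The spleen values of Zfand2a lay below the background level, so the size of its change is uncertain.

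**Figure D5:**
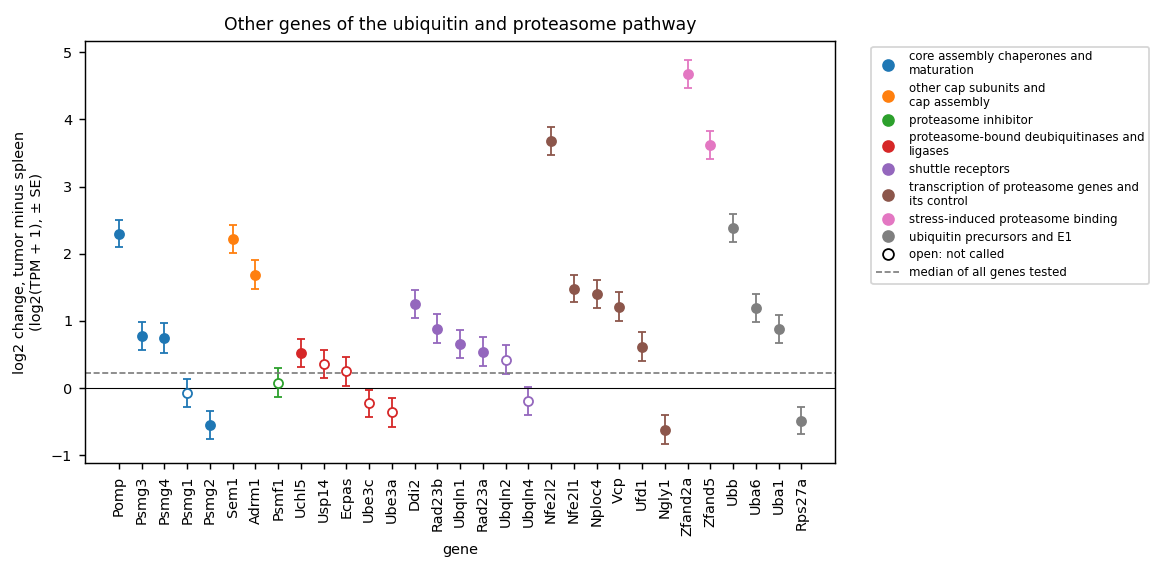
Log2 change, tumor minus spleen, on the log2(TPM + 1) scale with its standard error, for 31 other genes of the ubiquitin and proteasome pathway in 8 lists; open symbols were not called and the dashed line is the median of all genes tested. Zfand2a, Nfe2l2 and Zfand5 stand highest, and Ngly1, Psmg2 and Rps27a are the called falls.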

How the data were processed

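Total RNA was depleted of ribosomal RNA, made into stranded libraries and sequenced from both ends over 75 bp, per the labels' protocols. In each deposited file every gene symbol has a single value. These are read as TPM, since the deposited values are fractional and sum to less than the TPM total, and since kallisto stands in the submitters' processing notes, beside DESeq2 and mm10, without versions or roles. TPM are shares of a total, so a rise of abundant or unlisted transcripts lowers all others.

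Genes averaging at least 1 TPM over the 5 libraries were tested with limma 3.58.1 in R 4.3.3 on log2(TPM + 1), with a term for tissue alone, a trend of variance on level, two-sided p-values and Benjamini-Hochberg adjustment over 12979 genes. There were 3 residual and 44.1 prior degrees of freedom. The fit was also run on data simulated with its own variances, which cannot show whether its assumptions hold for these libraries. The log2(TPM + 1) scale understates changes of low genes. Numbers 2 and 3 are shared by both tissues, and no label says that they pair samples.

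Genes with values in every library followed a rule: the cutting subunits, the highest and lowest change in each place of the complex, every activator, Nfe2l1, Pomp, Psmf1 and the highest and lowest of each list of 3 or more other pathway genes. Psmb4, Psmd7, Psmd14, Sem1, Adrm1, Zfand2a and Zfand5 were named after their values were seen. The rule, the genes and the lists were chosen with earlier results of these data known. Some listed pathway genes are not reported here. Coordinates are those of GENCODE M21 (GRCm38). Exons of 6 of the 42 genes (Psmb7, Psmc3, Psmc3ip, Psmd1, Psmd13 and Psme1) overlap those of another listed gene on the opposite strand. The sources used here do not say whether strand was used in quantification, so their reads may be mixed. Exons of Psmb5, Psmd1 and Psme2b overlap those of an unlisted gene on the same strand, which strand cannot resolve. Alternatives were 4 other scalings, pseudocounts of 0.1 and 10, no filter and a minimum mean of 5 TPM, a threshold of 0.01, no trend, a replicate block, and leaving out each library.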

Additional observations from a re-analysis of the deposited data

How the results depend on the processing

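Of the 41 proteasome genes tested, 28 were called as rises in each of the 16 alternatives in which they were tested. The share of all genes called as rises in all of these alternatives was not counted. The count of rises among the 41 genes was 37 under the replicate block (37.6% of all genes tested). It was 36 to 38 with 1 spleen library left out (36.1% to 45.1% of all genes tested). In fits that leave 1 tumor library, its spread is taken to be that of the spleen. With no filter Psma8 was tested too and the rises numbered 38 (26.1% of all genes tested). Equal totals and the upper quartile each gave 2 falls, 1 of the core (Psmb11) and 1 of the cap (Psmd5), and 3 activator genes rose in place of 5. Over all genes, equal totals gave 2715 rises and 6694 falls, the upper quartile 3078 rises and 6366 falls, and scaling on the T cell identity markers 12282 rises and 122 falls. Leaving out 1 library gave 4311 to 5894 rises and 1225 to 2609 falls, the fewest falls without tumor replicate 2, and the replicate block 4877 and 2013. Why these counts move with scaling was not tested.

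Among the proteasome genes and the pathway genes chosen by the rule, signs that turned were those of Psma2, Psmb1, Psmc2, Psmc3ip, Psmd9, Psme2b, Psme3, Psmf1 and Uchl5 under equal totals (-0.33, -0.10, -0.17, -0.22, -0.51, -0.036, -0.14, -0.80 and -0.39). Under the upper quartile they were those of Psma2, Psmc2, Psmc3ip, Psmd9, Psme3, Psmf1 and Uchl5 (-0.21, -0.058, -0.096, -0.38, -0.024, -0.64 and -0.27). Scaled on the T cell identity markers they were those of Psmb11, Psmd5, Psmg2, Ube3a, Ubqln4, Ngly1 and Rps27a (1.15, 1.53, 1.32, 1.73, 1.66, 1.43 and 1.65). With 1 library left out Psmf1 ranged from -0.11 (without tumor replicate 3) to 0.28 (without tumor replicate 2). Under the replicate block the one call lost among the genes named with values was that of Uchl5 (adjusted p = 0.16). Deviations from the tissue means had r = 0.20 between the libraries numbered 2 and 0.07 between those numbered 3. Between tumor replicate 3 and spleen replicate 1 the r was 0.19. With 2 tumor libraries each r recurs with the opposite sign, so these values cannot decide whether the numbers pair samples. They were taken over genes, which are not independent replicates.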
